A study of Mus musculus with 8 samples.

Results

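The Hox cluster genes encode homeodomain transcription factors, and their values were taken from arrays of interstitial cells of Cajal (ICC) and of the muscle coat of the mouse small intestine. Members were all genes named alone by a probe set whose annotated symbol was Hoxa, Hoxb, Hoxc or Hoxd followed by a number. These were 33 of the 18193 genes with such a probe set. The genes were selected on their symbols alone. Where several probe sets named a gene, its values were chosen by the mean over all 8 arrays, and the brightest probe set was kept. The set had been named by Hoxb6, Hoxb3 and Hoxb2 with earlier results of these data known. Their differences are therefore given as a description, without a p-value, and the counts of genes that passed each comparison are also given without them.

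The mouse genome annotation (RefSeq, GRCm38.p6) holds 39 Hox genes in 4 clusters, HoxA with 11 genes on chromosome 6, HoxB with 10 on chromosome 11, HoxC with 9 on chromosome 15 and HoxD with 9 on chromosome 2. The arrays measured 9, 9, 7 and 8 of them. The other 6 genes were not analysed here. As background, the clusters arose by duplication, and genes that share a number, from 1 to 13, are paralogs with similar homeodomains. Within a cluster the low numbers lie at the 3′ end and are switched on earlier and further forward in the embryo than the high numbers at the 5′ end. In the gut, Hox genes pattern the mesoderm that gives rise to smooth muscle and ICC along the length of the tube, and this positional code partly persists after birth. Retinoic acid activates 3′ genes, Polycomb proteins keep clusters silent, Trithorax proteins keep them active, and TALE homeodomain proteins bind DNA together with Hox proteins.

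All samples were small intestine of BALB/c mice 6 to 9 days old, and no other genotype or treatment is named in the labels. There were 3 ICC-DMP samples, 3 ICC-MY samples and 2 samples of whole tunica muscularis, called tissue below. ICC of the deep muscular plexus are commonly written ICC-DMP and those of the myenteric plexus ICC-MY, but the labels do not spell these names out. The sample titles call the replicates biological, but the isolation of the cells and the number of animals per sample are not stated here. The p-values therefore measure only the spread between these samples, which may be in part technical.

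Values are log2 expression per probe set as deposited. The median of an array ran from 4.18 to 4.30. Values spread less on ICC-MY replicate 1 and on tissue replicate 1, with an SD over probe sets of 1.98 and 2.06, than on the rest, with 2.22 to 2.31. The actin control's 3′ probe set exceeded its 5′ probe set by 4.66 on the array of ICC-DMP replicate 3, by 4.28 on that of ICC-MY replicate 3, and by 2.53 to 3.53 elsewhere. The mean over 8 ICC markers, among them Kit, ran from 9.91 to 10.2 in ICC-DMP and from 10.5 to 11.8 in ICC-MY, against 8.21 to 9.02 in tissue. The mean over 10 smooth muscle markers ran from 9.83 to 10.1 in ICC-DMP and from 7.35 to 8.12 in ICC-MY, against 10.4 to 11.3 in tissue. The 9 neuron markers averaged 3.89 to 4.02 over the arrays of isolated cells and 8.79 to 9.20 in tissue. The 6 mesothelial markers averaged 3.74 to 4.13 in isolated cells and 8.73 to 8.99 in tissue. The 7 intestinal epithelial markers averaged 3.47 to 3.78 in isolated cells, 5.19 on tissue replicate 1 and 6.79 on tissue replicate 2. Of these, Fabp2 read 7.08 on tissue replicate 1 and 11.4 on tissue replicate 2. Fabp1, Vil1, Cdh1 and Krt20 were also higher on tissue replicate 2, while Epcam and Cdx1 were lower there. The part of epithelial cells in the differences from tissue was not tested. In the tissue, fewer cells of a type and less RNA per cell cannot be told apart.

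Of the 33 Hox genes, 7 passed the test in at least 1 comparison: Hoxa2, Hoxb2, Hoxb3, Hoxb4, Hoxb5, Hoxb6 and Hoxd8. Passing means an adjusted p below 0.05 by limma, after Benjamini-Hochberg adjustment over all 18193 genes. The other 26 passed in none. Hoxb2, Hoxb3 and Hoxb6 named the set with results of these data known, so their place among the 7 is a description and not a test. Across the chromosome, Hoxb2 to Hoxb6 are 5 adjacent genes, and each of them was higher in ICC-DMP than in ICC-MY. Their measured neighbours on either side, Hoxb1 and Hoxb7, read under the array median on all 8 arrays and did not pass. A probe set shared by Hoxb8 and Hoxb7 read above the array median, from 5.43 to 6.07, and did not pass either. Hoxd8 went the other way from Hoxb2 to Hoxb6 and was lowest in ICC-DMP.

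**Figure D1:**
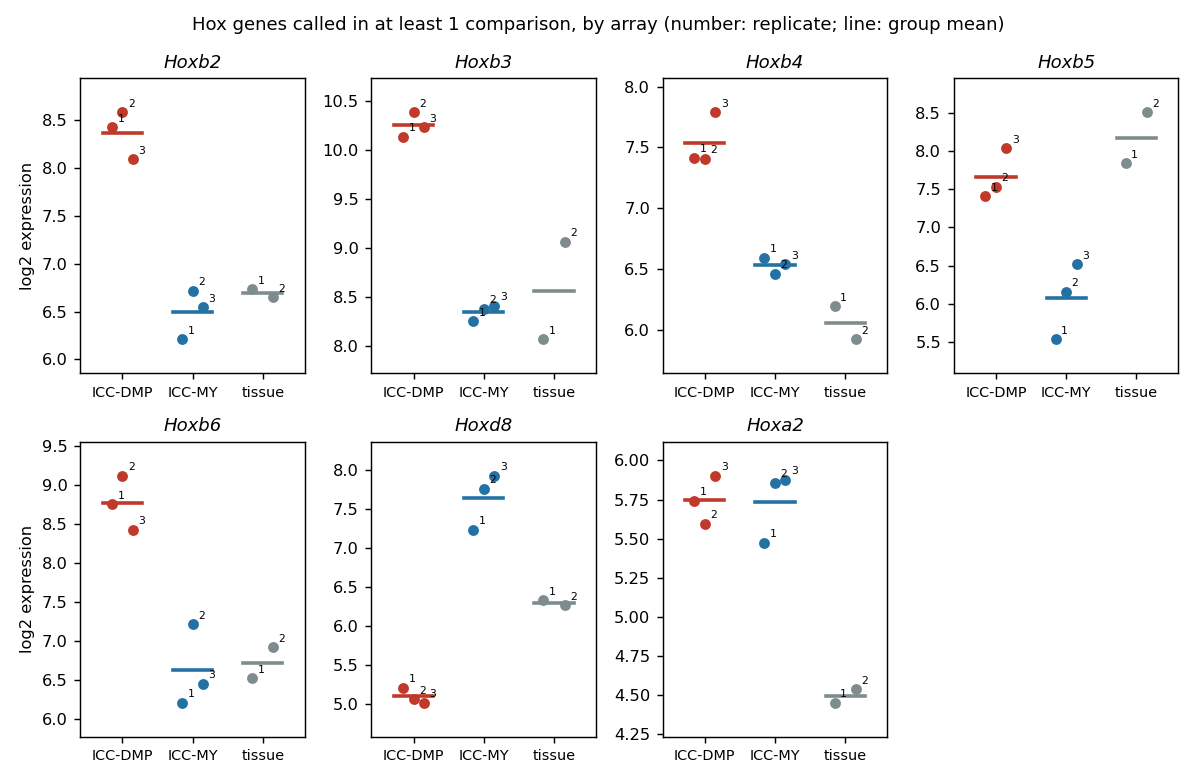
The log2 expression of the 7 Hox genes that passed in at least 1 comparison is plotted by array for ICC-DMP (3 arrays), ICC-MY (3) and tunica muscularis (tissue, 2), with each point numbered by replicate and a line at the group mean. Each gene has its own axis, which does not start at 0. The 3 ICC-DMP points lie above all 3 ICC-MY points for Hoxb2 to Hoxb6 and below them for Hoxd8.

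The classes were set against each other to find what separates them. In ICC-DMP, 5 Hox genes were higher and 1 was lower than in ICC-MY, which is 6 of 33 or 18.2%, against 8.67% of all genes. Over all genes 5.36% were higher and 3.30% lower. Without Hoxb6, Hoxb3 and Hoxb2, 3 of 30 passed, a share near that of all genes. The arrays of the classes did not overlap for 12 of the 33 genes, or 36.4%, against 25.6% of all genes. Hoxb6, Hoxb3 and Hoxb2 are among these 12, so this share is a description. The median difference of the 33 genes was -0.08, and that of all genes was -0.02.

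Hoxb6, expressed in the lateral plate mesoderm of the embryo, read 8.76, 9.12 and 8.43 in ICC-DMP, 6.21, 7.22 and 6.46 in ICC-MY, and 6.53 and 6.92 in tissue. The ICC-DMP arrays stood above all others, while the ICC-MY arrays lay on both sides of the tissue arrays. The difference between ICC-DMP and ICC-MY was 2.14 (SE 0.29), a 4.40-fold difference, and that between ICC-DMP and tissue was 2.04 (SE 0.32).

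Hoxb3, which acts with its paralogs in the hindbrain and neck, read 10.1, 10.4 and 10.2 in ICC-DMP, 8.25, 8.38 and 8.41 in ICC-MY, and 8.06 and 9.06 in tissue. The lowest ICC-DMP array was again above every other array. The tissue arrays differed from each other by more than the ICC-MY arrays did and enclosed them. ICC-DMP exceeded ICC-MY by 1.91 (SE 0.24) and tissue by 1.69 (SE 0.27). A second Hoxb3 probe set, fitted with every probe set as its own feature, also had a positive difference, of 0.69 against ICC-MY and 0.80 against tissue.

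Hoxb2, which specifies motor neurons of the hindbrain, read 8.42, 8.57 and 8.09 in ICC-DMP, 6.21, 6.72 and 6.54 in ICC-MY, and 6.73 and 6.65 in tissue. The groups were arranged as for Hoxb6 and Hoxb3, with ICC-DMP apart and ICC-MY overlapping tissue. The differences were 1.87 (SE 0.19) against ICC-MY and 1.67 (SE 0.21) against tissue.

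Hoxb4, known for expanding blood stem cells when overexpressed, read 7.42, 7.41 and 7.79 in ICC-DMP, 6.59, 6.46 and 6.54 in ICC-MY, and 6.20 and 5.92 in tissue. The 3 groups did not overlap, and ICC-MY lay between the other groups. Hoxb4 was higher in ICC-DMP than in ICC-MY by 1.0 (SE 0.16, adjusted p = 0.00458 by limma). That call was lost without ICC-DMP replicate 3 and ICC-MY replicate 3, the arrays of highest actin difference (0.88, adjusted p = 0.063). A second, dimmer Hoxb4 probe set had the same sign and did not pass (0.36, adjusted p = 0.354).

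Hoxb5, which acts in neural crest cells that form the enteric nervous system, had another pattern over the 3 groups. It read 7.41, 7.54 and 8.04 in ICC-DMP, 5.53, 6.16 and 6.52 in ICC-MY, and 7.84 and 8.51 in tissue. ICC-DMP overlapped tissue, and all 3 ICC-MY arrays lay below both. The difference between ICC-DMP and ICC-MY was 1.59 (SE 0.30, adjusted p = 0.0122 by limma), which was lost without ICC-DMP replicate 3 (1.40, adjusted p = 0.0529).

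Hoxd8, a central gene of the HoxD cluster, read 5.21, 5.06 and 5.01 in ICC-DMP, 7.23, 7.76 and 7.93 in ICC-MY, and 6.33 and 6.27 in tissue. The 3 groups were separate, with the tissue arrays between the cell classes. Hoxd8 was lower in ICC-DMP than in ICC-MY by limma, with a log2 difference of -2.55 (SE 0.19, adjusted p = 0.000105), a 5.85-fold difference and the smallest adjusted p of the 33 genes. A second Hoxd8 probe set gave -2.18 (adjusted p = 0.00127).

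Within pairs of ICC-DMP and ICC-MY samples of the same replicate number, the difference was above 0 in 3 of 3 pairs for each of Hoxb2 to Hoxb6. It ran from 1.9 to 2.54 for Hoxb6, from 1.83 to 2.01 for Hoxb3, from 1.55 to 2.21 for Hoxb2, from 0.82 to 1.25 for Hoxb4 and from 1.38 to 1.88 for Hoxb5. For Hoxd8 it was below 0 in 3 of 3 pairs, from -2.91 to -2.03. The arrays of the classes did not overlap for these 6 genes, so any pairing of the arrays would give the same signs. The signs within pairs therefore add nothing to the differences above. For Hoxb2, Hoxb3 and Hoxb6, which named the set, the ranges are a description. With the replicate number as a block, the 6 genes passed again and 3 more HoxA genes did: Hoxa3 (0.71, adjusted p = 0.0309), Hoxa4 (0.76, adjusted p = 0.0154) and Hoxa7 (-0.78, adjusted p = 0.00927). Without the block these had adjusted p-values of 0.0581, 0.102 and 0.0816.

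Of 10 genes that mark smooth muscle, ICC-DMP had 7 higher and 0 lower than ICC-MY, and their mean ran from 9.83 to 10.1 in ICC-DMP and from 7.35 to 8.12 in ICC-MY. In tissue that mean was 10.4 to 11.3. Over all genes 5.36% were higher and 3.30% lower in ICC-DMP than in ICC-MY, beside which the marker counts here stand. Hoxb5 averaged 7.66 in ICC-DMP, 6.07 in ICC-MY and 8.18 in tissue, the same order of groups as the smooth muscle markers. Hoxb2, Hoxb3, Hoxb4 and Hoxb6 had their highest group mean in ICC-DMP. Of the 6 fibroblast and PDGFRA cell markers, 1 was higher in ICC-DMP than in ICC-MY and 0 lower, and their mean ran from 10.8 to 11.2 in ICC-DMP, from 9.81 to 10.7 in ICC-MY and from 11.0 to 12.1 in tissue. Of 6 endothelial markers, 2 were lower in ICC-DMP than in ICC-MY and 0 higher, and their mean ran from 3.69 to 3.93 in ICC-DMP, from 4.26 to 5.23 in ICC-MY and from 5.12 to 5.42 in tissue. Of 5 enteric glia and Schwann cell markers, 1 was higher in ICC-DMP than in ICC-MY and 0 lower, and their mean ran from 5.06 to 5.24 in ICC-DMP, from 4.73 to 4.86 in ICC-MY and from 6.40 to 6.62 in tissue. Enteric neuron markers, mesothelial markers and macrophage markers averaged at most 4.13 on every array of isolated cells. Single markers read higher there, such as Csf1r (5.6 to 6.8) and Nos1 (5.8 to 6.1). Of the 9 neuron markers, Ret was lower in ICC-DMP than in ICC-MY (-1.46, adjusted p = 0.00168 by limma) and 0 were higher. Of the mesothelial and macrophage markers 0 passed between the classes. The part of other cell types in the Hox differences was not tested.

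**Figure D2:**
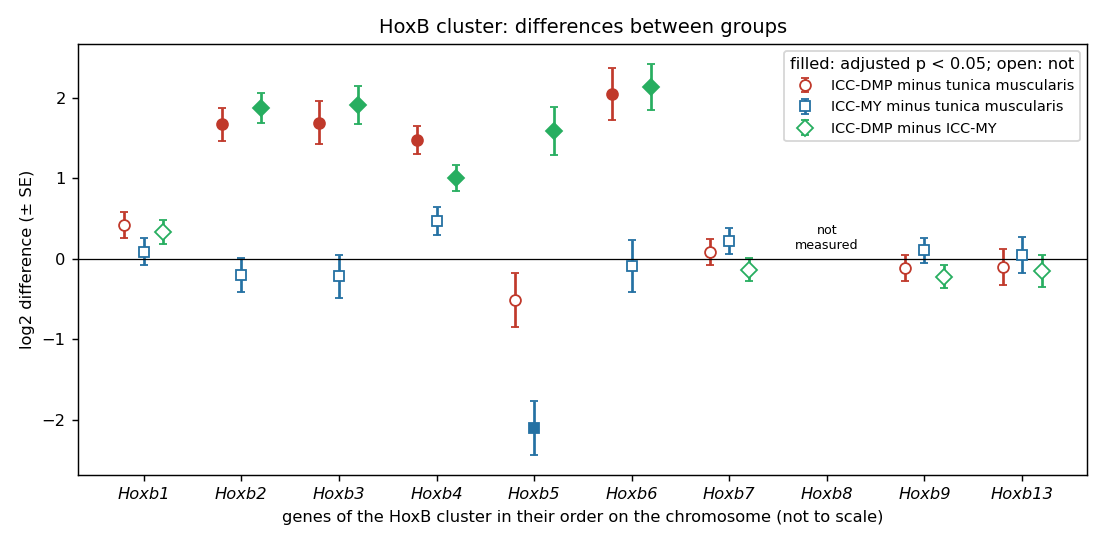
The log2 difference between groups, with its standard error, is plotted for each HoxB gene in chromosomal order (not to scale), for ICC-DMP minus tunica muscularis, ICC-MY minus tunica muscularis and ICC-DMP minus ICC-MY. Filled symbols passed at an adjusted p under 0.05, which for Hoxb2, Hoxb3 and Hoxb6, the genes that named the set, is a description. Hoxb2 to Hoxb6 form a run of filled symbols for ICC-DMP minus ICC-MY, Hoxb5 alone is filled and negative for ICC-MY minus tunica muscularis, and Hoxb1, Hoxb7, Hoxb9 and Hoxb13 have open symbols in all 3 comparisons.

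ICC-DMP was compared with tissue to find what sets these cells apart from the muscle coat. In ICC-DMP, 5 Hox genes were higher than in tissue and 1 was lower, again 6 of 33 or 18.2%, against 11.0% of all genes. Over all genes 3.72% were higher and 7.32% lower. Without Hoxb6, Hoxb3 and Hoxb2, 3 of 30 passed, again near that share. The arrays of ICC-DMP and tissue did not overlap for 16 of 33 genes, or 48.5%, against 38.5% of all genes. Hoxb6, Hoxb3 and Hoxb2 are among these 16, so this share is a description too. The median difference was -0.08 against -0.04 over all genes.

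Beside Hoxb6, Hoxb3 and Hoxb2, the genes higher in ICC-DMP were Hoxb4 by 1.48 (SE 0.17, adjusted p = 0.000941 by limma) and Hoxa2 by 1.25 (SE 0.18, adjusted p = 0.00253). Hoxa2, which sets the identity of the second pharyngeal arch, read 5.74, 5.60 and 5.90 in ICC-DMP, 5.47, 5.86 and 5.88 in ICC-MY, and 4.45 and 4.54 in tissue. The cell classes overlapped and both stood above tissue. Hoxd8 was lower in ICC-DMP than in tissue, with a log2 difference of -1.20 (SE 0.21, adjusted p = 0.00783). Its second probe set had the same sign and did not pass (-0.80, adjusted p = 0.12). Hoxb5 had a difference of -0.51 (SE 0.34, adjusted p = 0.481), but with the replicate block it passed (-0.72, adjusted p = 0.0313), as did the dim gene Hoxd3 (-0.64, adjusted p = 0.0263).

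ICC-MY was compared with the same tissue arrays. In ICC-MY, 2 Hox genes were higher than in tissue and 1 was lower, 3 of 33 or 9.09%, against 13.8% of all genes. Over all genes 4.05% were higher and 9.78% lower. The arrays did not overlap for 11 of 33 genes, or 33.3%, against 34.2% of all genes, and the median difference was 0.02 against -0.02 over all genes. Without Hoxb6, Hoxb3 and Hoxb2 the same 3 genes were left, of 30.

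Hoxb5 was lower in ICC-MY than in tissue, with a log2 difference of -2.11 (SE 0.34, adjusted p = 0.00362 by limma), a 4.31-fold difference. Hoxa2 was higher by 1.24 (SE 0.18, adjusted p = 0.00213) and Hoxd8 by 1.35 (SE 0.21, adjusted p = 0.00353). Hoxd8 was thus above tissue in ICC-MY and below it in ICC-DMP, and its second probe set had a difference of 1.37 in ICC-MY (adjusted p = 0.0146). Hoxa2 was above tissue in both classes, which share the 2 tissue arrays, and ICC-DMP and ICC-MY differed in it by 0.01 (SE 0.16, adjusted p = 0.988).

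The other members of the HoxB run did not pass against tissue in ICC-MY: the differences were -0.20 (SE 0.21) for Hoxb2, -0.22 (SE 0.27) for Hoxb3, 0.47 (SE 0.17, adjusted p = 0.13 by limma) for Hoxb4 and -0.09 (SE 0.32) for Hoxb6. The sign of Hoxb3 depended on the tissue array: the difference was -0.72 without tissue replicate 1 and 0.28 without tissue replicate 2. The count of 3 became 5 without tissue replicate 1, 5 without ICC-MY replicate 1 and 7 without both of these arrays. With the replicate block it was 6, with Hoxa4 (-0.88, adjusted p = 0.0123), Hoxc4 (-0.80, adjusted p = 0.0286) and Hoxd3 (-0.57, adjusted p = 0.0374) lower in ICC-MY.

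Promoter windows from RefSeq cover 3 of the 7 genes that passed in a comparison, and the 250 bases before the starts of these 3 are shown. No window was available for Hoxb2, Hoxb3, Hoxb5 and Hoxb6. The 3 genes differ in pattern: Hoxb4 was higher in ICC-DMP, Hoxd8 opposite in the ICC classes, and Hoxa2 higher in both. The pattern of Hoxb5 is not among them. Capitals mark matches, on either strand, to 3 motifs searched in all windows: AGGTCA, the half-site of retinoid receptors, TGATNNAT, the Hox-Pbx site, and TGACAG, the Meis site. The build is GRCm38.p6, and the windows are chr11:96318017-96318266 on the plus strand for Hoxb4, chr2:74704365-74704614 on the plus strand for Hoxd8 and chr6:52164832-52165081 on the minus strand for Hoxa2.
Hoxb4: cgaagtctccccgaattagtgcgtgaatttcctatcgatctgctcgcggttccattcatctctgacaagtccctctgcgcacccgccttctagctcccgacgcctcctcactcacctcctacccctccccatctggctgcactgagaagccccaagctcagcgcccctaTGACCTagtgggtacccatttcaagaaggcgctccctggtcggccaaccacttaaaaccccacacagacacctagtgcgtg
Hoxd8: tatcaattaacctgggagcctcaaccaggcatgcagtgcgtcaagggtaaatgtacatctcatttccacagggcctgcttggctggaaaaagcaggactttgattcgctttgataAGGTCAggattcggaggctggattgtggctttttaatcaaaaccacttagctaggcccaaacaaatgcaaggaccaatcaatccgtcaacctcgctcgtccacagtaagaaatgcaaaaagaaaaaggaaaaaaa
Hoxa2: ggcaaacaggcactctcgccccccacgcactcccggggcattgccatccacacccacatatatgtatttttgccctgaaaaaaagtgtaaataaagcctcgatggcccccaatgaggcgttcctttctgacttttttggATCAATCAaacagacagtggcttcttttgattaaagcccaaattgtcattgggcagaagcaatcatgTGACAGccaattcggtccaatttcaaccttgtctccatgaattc
The Hoxb4 window holds the retinoid half-site on the other strand, 81 to 76 bases before the start, and the Hoxd8 window holds it as printed, 135 to 130 bases before the start. The Hoxa2 window holds the Hox-Pbx site on the other strand, 111 to 104 bases before the start, and the Meis site 44 to 39 bases before it. No matches overlapped. AGGTCA occurred in 14.0% of 32851 windows of the same length and in 6 of 24 Hox windows, TGATNNAT in 7.68% and 4 of 24, and TGACAG in 15.9% and 2 of 24. The 24 windows belong to 22 Hox genes. A match of this length is a description of the letters only.

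By cluster, HoxB held most of the genes that passed: 4 of 9 higher in ICC-DMP than in tissue, 1 of 9 lower in ICC-MY than in tissue, and 5 of 9 higher in ICC-DMP than in ICC-MY. Without Hoxb2, Hoxb3 and Hoxb6 these counts were 1 of 6, 1 of 6 and 2 of 6. Over all genes 3.72%, 9.78% and 5.36% passed in those directions. In HoxA, Hoxa2 passed against tissue in each class and 0 of 9 passed between the classes. In HoxD, Hoxd8 was the gene of the 8 that passed, in all 3 comparisons. All 8 HoxD genes had a difference below 0 between ICC-DMP and tissue, from -1.20 to -0.10, also after quantile normalization and after centring on the array median. Without tissue replicate 2 it was 7 of 8, with Hoxd10 at 0.006. Over all genes 10235 of 18193 were below 0 between ICC-DMP and tissue. Of the 8 HoxD genes, 6 read under the array median on all 8 arrays, and a second Hoxd13 probe set had the other sign (0.115). In HoxC, 0 of 7 passed in any comparison by limma, and 1, 2 and 0 had an unadjusted p under 0.05 in ICC-DMP against tissue, ICC-MY against tissue and ICC-DMP against ICC-MY.

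**Figure D3:**
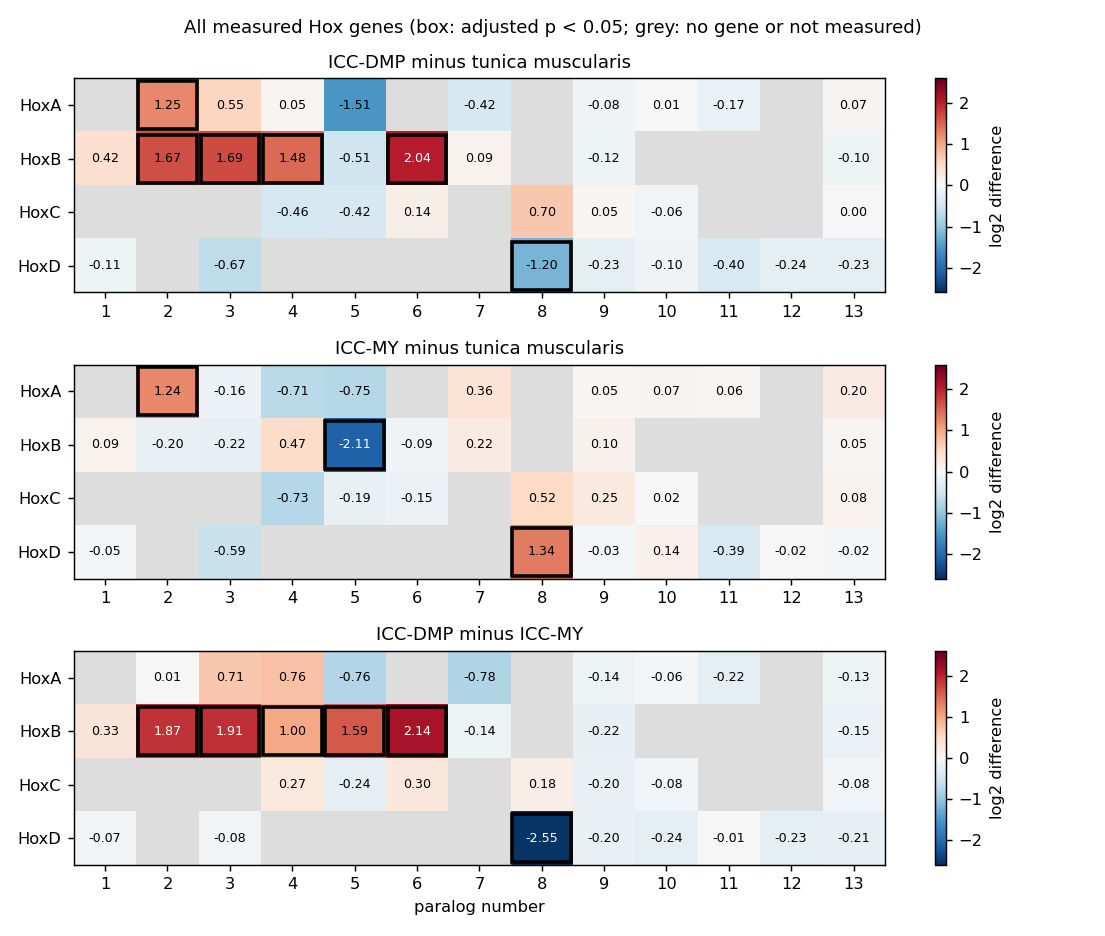
The log2 difference of each of the 33 measured Hox genes is shown by cluster (rows) and paralog number (columns) for the 3 comparisons, with red above 0, blue below 0 and a box around genes at an adjusted p under 0.05. Boxes lie at paralog numbers 2 to 6 and 8, and the columns from 9 to 13 are pale. The boxes of Hoxb2, Hoxb3 and Hoxb6, the genes that named the set, are a description.

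By paralog number, genes that passed had the numbers 2 to 6 and 8. Of the 14 measured genes numbered 9 to 13, which pattern the posterior trunk, hindgut and limbs, 0 passed in any comparison. Among them 11 read under the array median on all 8 arrays, 2 (Hoxa9 and Hoxc9) above it on all 8, and Hoxd9 on both sides. Of 12 genes numbered 4 to 8, 10 read above the median on all 8 arrays, Hoxb7 below it on all 8, and Hoxa4 on both sides. Of 7 genes numbered 1 to 3, 4 read above it and Hoxb1, Hoxd1 and Hoxd3 below it on all 8. In total 16 members read above and 15 below the array median on all arrays, and of those 15, which ran from 2.32 to 3.99, 0 passed. All 14 genes numbered 9 to 13 had a difference below 0 between ICC-DMP and ICC-MY, from -0.24 to -0.01. Over all genes 9630 of 18193 were below 0 there. Of the 14, 0 had an unadjusted p under 0.05 by limma, and a second Hoxd13 probe set had the other sign (0.02). The count became 13 of 14 after quantile normalization and after centring, and 12 of 14 without ICC-MY replicate 1.

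Paralogs of the genes that passed often did not follow them. At number 2 both measured genes exceeded tissue in ICC-DMP, but Hoxb2 differed between the cell classes by 1.87 and Hoxa2 by 0.01. At number 3, Hoxa3 read 5.22, 5.29 and 5.67 in ICC-DMP, 4.78, 4.58 and 4.70 in ICC-MY, and 4.58 and 5.10 in tissue. Its ICC-DMP arrays lay above the others, but neither its difference of 0.71 from ICC-MY (adjusted p = 0.0581 by limma) nor that of 0.55 from tissue (adjusted p = 0.162) passed. It passed against ICC-MY under 8 of 18 alternatives, and its difference ran from 0.37 to 0.79 over these. Among them were quantile normalization (0.67, adjusted p = 0.0316 by limma) and array weights (0.68, adjusted p = 0.0181). Of the 3 other Hoxa3 probe sets, 1 passed against tissue (1.09, adjusted p = 0.024). Between ICC-DMP and ICC-MY these 3 gave 0.90, 0.14 and -0.26, so the signs differed. Hoxd3 was dim, from 2.85 to 3.94 over the arrays.

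At number 4, Hoxa4 read 4.45, 4.36 and 4.69 in ICC-DMP, 3.33, 3.64 and 4.26 in ICC-MY, and 4.41 and 4.50 in tissue. ICC-MY was lowest without overlap, and the difference between ICC-DMP and ICC-MY was 0.76 (SE 0.23, adjusted p = 0.102 by limma). Without ICC-MY replicate 3, whose value was the closest to the other groups, it was 1.02 (adjusted p = 0.0147), and the difference between ICC-MY and tissue was -0.97 (adjusted p = 0.0186). Hoxc4 read 6.56, 6.49 and 6.69 in ICC-DMP, 5.92, 6.57 and 6.45 in ICC-MY, and 6.71 and 7.39 in tissue. Both cell classes lay below tissue without overlap, by limma with differences of -0.46 in ICC-DMP (adjusted p = 0.381) and -0.73 in ICC-MY (adjusted p = 0.111). The difference in ICC-MY passed without tissue replicate 1 (-1.08, adjusted p = 0.043).

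At number 5, Hoxa5, needed for lung and gut development, read 8.20, 8.18 and 7.78 in ICC-DMP, 10.2, 8.29 and 7.99 in ICC-MY, and 10.1 and 9.06 in tissue. The high ICC-MY value is that of replicate 1, an array of narrow range. A second Hoxa5 probe set read 8.87, 8.80 and 8.81 in ICC-DMP, 7.97, 8.33 and 7.99 in ICC-MY, and 8.81 and 9.57 in tissue, so the probe sets ranked the cell classes in opposite orders. By limma the first gave -0.76 between ICC-DMP and ICC-MY (adjusted p = 0.57) and the second 0.73 (adjusted p = 0.0756). Fitted against tissue, the second passed in ICC-MY (-1.09, adjusted p = 0.0153) and the first did not (-0.75). The first had -1.51 in ICC-DMP against tissue (adjusted p = 0.182), and it passed there without ICC-MY replicate 1 (-1.51, adjusted p = 0.0134), as it did in ICC-MY (-1.42, adjusted p = 0.0221). The level of Hoxa5 is therefore uncertain here. Hoxc5 ran from 6.64 to 6.92 in ICC-DMP and from 6.79 to 7.31 in ICC-MY, against 7.14 to 7.35 in tissue.

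At number 6, Hoxc6 ran from 6.00 to 6.28 in ICC-DMP, from 5.72 to 6.04 in ICC-MY and from 5.87 to 6.17 in tissue, and its differences were between -0.15 and 0.30. At number 8, Hoxc8, which acts in thoracic skeleton and motor neurons, read 9.52, 9.69 and 9.70 in ICC-DMP, 9.03, 9.76 and 9.58 in ICC-MY, and 8.91 and 8.97 in tissue. Both cell classes lay above tissue without overlap, but the differences of 0.70 in ICC-DMP (adjusted p = 0.089 by limma) and 0.52 in ICC-MY (adjusted p = 0.186) did not pass. Without ICC-MY replicate 1 they were 0.70 (adjusted p = 0.017) and 0.73 (adjusted p = 0.0175). Between ICC-DMP and ICC-MY, Hoxc8 differed by 0.18 (adjusted p = 0.754), while Hoxd8 differed by -2.55.

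The remaining uncalled members were mostly dim. Hoxa7 read above the array median, from 5.67 to 6.03 in ICC-DMP, from 6.20 to 6.99 in ICC-MY and from 6.03 to 6.42 in tissue, and was lower in each ICC-DMP sample than in each ICC-MY sample (-0.78, adjusted p = 0.0816 by limma, and -0.96 and 0.0466 without ICC-MY replicate 2). Hoxa9 ran from 5.57 to 5.60 in ICC-DMP, from 5.52 to 5.90 in ICC-MY and from 5.59 to 5.74 in tissue. Hoxc9 ran from 5.32 to 5.56 in ICC-DMP, from 5.44 to 5.75 in ICC-MY and from 5.13 to 5.57 in tissue, so the groups overlapped for both. Hoxd9 ran from 4.02 to 4.23 in ICC-DMP, from 4.14 to 4.49 in ICC-MY and from 4.25 to 4.52 in tissue. Hoxb1, the 3′ neighbour of Hoxb2, ran from 3.14 to 3.37 in ICC-DMP, from 2.82 to 3.18 in ICC-MY and from 2.82 to 2.92 in tissue. Hoxb7, the 5′ neighbour of Hoxb6 among measured genes, stayed between 3.48 and 3.94 on all arrays. A probe set shared by Hoxb8 and Hoxb7 read 5.43 to 6.07 and did not pass (lowest adjusted p = 0.317), and 2 shared by Hoxd4 and Hoxd3 read 2.85 to 4.09.

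Genes known to act with or upstream of Hox genes were counted from 6 lists. Of 8 measured TALE cofactors, Pknox2 passed, in ICC-DMP against tissue and against ICC-MY, and 0 passed in ICC-MY against tissue, where 1 had an unadjusted p under 0.05. The 1 gene is 12.5% of the list, near the shares of all genes, 11.0% in ICC-DMP against tissue and 8.67% between the classes. In ICC-MY against tissue 13.8% of all genes passed. Pknox2, which encodes a relative of the Meis proteins, read 6.93, 6.78 and 7.03 in ICC-DMP, 5.76, 5.42 and 6.07 in ICC-MY, and 5.64 and 5.53 in tissue. ICC-DMP stood apart from both other groups, as it did for Hoxb2, Hoxb3 and Hoxb6. By limma the difference was 1.16 (SE 0.18, adjusted p = 0.00481) against ICC-MY and 1.32 (SE 0.20, adjusted p = 0.00382) against tissue. The brightest TALE genes, Meis2 and Pbx3, differed between ICC-MY and tissue by 0.32 (adjusted p = 0.75) and 0.31 (adjusted p = 0.539). The list's median difference was 0.40 in ICC-DMP against tissue, 0.22 in ICC-MY against tissue and 0.44 in ICC-DMP against ICC-MY, and the medians over all genes were -0.04, -0.02 and -0.02.

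Of 16 measured genes of retinoic acid synthesis, breakdown, binding and receptors, 4 were higher and 1 was lower in ICC-DMP than in ICC-MY, where 5.36% of all genes were higher and 3.30% lower. The list's median was -0.09 there. Aldh1a2, the main embryonic enzyme that makes retinoic acid, read 11.8, 12.0 and 11.5 in ICC-DMP, 8.0, 7.86 and 8.74 in ICC-MY, and 10.3 and 10.8 in tissue. The groups did not overlap, with ICC-DMP above and ICC-MY below tissue. The difference between the classes was 3.58 (SE 0.26, adjusted p = 0.000102 by limma).

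Aldh1a3, another retinaldehyde dehydrogenase, read 10.4, 10.5 and 10.4 in ICC-DMP, 6.44, 6.84 and 7.38 in ICC-MY, and 7.81 and 8.74 in tissue, in the same order of groups. It differed by 3.55 (SE 0.29, adjusted p = 0.000165 by limma). Rdh10, which makes retinaldehyde from retinol, read 8.71, 8.79 and 8.39 in ICC-DMP, 6.83, 7.23 and 7.11 in ICC-MY, and 8.40 and 8.76 in tissue. ICC-MY lay below both other groups, and ICC-DMP exceeded it by 1.58 (SE 0.18, adjusted p = 0.000882).

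Rarb, a retinoic acid receptor that is also a known target of the signal, read 3.61, 3.45 and 3.74 in ICC-DMP, 5.57, 5.93 and 5.50 in ICC-MY, and 5.95 and 6.00 in tissue. ICC-DMP was lowest, and there Rarb read below the array median. Its difference between ICC-DMP and ICC-MY was -2.07 (SE 0.16, adjusted p = 0.00012 by limma). Rxra, the partner of these receptors, was also higher in ICC-DMP than in ICC-MY (1.0, SE 0.19, adjusted p = 0.0118), and it is named as the remaining gene of the 5 after its value was seen. That call was lost without ICC-DMP replicate 1, without ICC-DMP replicate 3, without the arrays of highest actin difference and with probe sets averaged, where values ran from as low as 0.28.

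**Figure D4:**
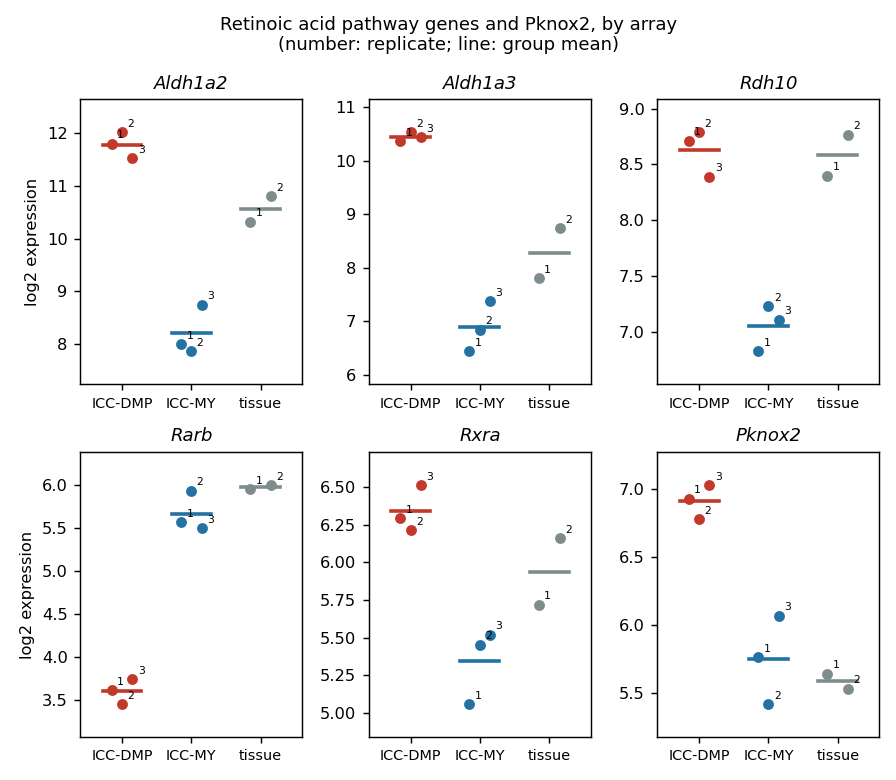
The log2 expression of 5 retinoic acid pathway genes and the TALE cofactor gene Pknox2 is plotted by array for ICC-DMP, ICC-MY and tunica muscularis (tissue), with points numbered by replicate, a line at the group mean and a separate axis for each gene that does not start at 0. The 3 ICC-DMP points lie above all ICC-MY points for each gene but Rarb, where they lie below.

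Against tissue, 2 of the 16 retinoic acid genes were higher in ICC-DMP and 1 was lower (list median -0.01), against 3.72% and 7.32% of all genes. By limma these were Aldh1a3 (2.17, adjusted p = 0.00341), Aldh1a2 (1.22, adjusted p = 0.0324) and Rarb (-2.38, adjusted p = 7.5e-05). In ICC-MY, Aldh1a1 was higher than in tissue (1.76, adjusted p = 0.0345), while Aldh1a2 (-2.36, adjusted p = 0.000986), Rdh10 (-1.53, adjusted p = 0.00133) and Aldh1a3 (-1.38, adjusted p = 0.0249) were lower (list median -0.17). Over all genes, 4.05% were higher and 9.78% lower there. The Aldh1a2 call in ICC-DMP was lost on leaving out any 1 of the ICC-DMP arrays or tissue replicate 1 (0.96 to 1.46 over all alternatives). The Aldh1a1 call was lost without any 1 array other than ICC-MY replicate 1 (1.37 to 2.26), and the Aldh1a3 call in ICC-MY without ICC-DMP replicate 1 or 2, ICC-MY replicate 2 or tissue replicate 2 (-1.85 to -0.81).

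Among 17 measured Polycomb group genes, 1 was higher and 2 were lower than tissue in each cell class, and 0 passed between the classes by limma, where 5 had an unadjusted p under 0.05. That is 17.6% of the list against tissue in each class, and 11.0% of all genes passed in ICC-DMP and 13.8% in ICC-MY. Between the classes 8.67% of all genes passed, and 3360 of 18193 had an unadjusted p under 0.05 by limma. Cbx8, a subunit that binds methylated H3K27, was lower in ICC-MY by limma (-1.0, SE 0.15, adjusted p = 0.00266). The other calls were marginal. Ezh2, the H3K27 methyltransferase, was lower in ICC-DMP (-0.93, adjusted p = 0.0444) and in ICC-MY (-0.94, adjusted p = 0.0352), its homolog Ezh1 higher in ICC-DMP (0.73, adjusted p = 0.045), Cbx8 lower in ICC-DMP (-0.59, adjusted p = 0.0413), and Jarid2, an accessory subunit, higher in ICC-MY (1.05, adjusted p = 0.0286). Each of these 5 was lost when any of at least 5 single arrays was left out, which over the 5 calls were all arrays but ICC-MY replicate 1, with ranges of -1.06 to -0.79, -1.11 to -0.70, 0.28 to 0.86, -0.75 to -0.34 and 0.46 to 1.27. The brightest genes, Bmi1 and Jarid2, differed between the classes by 0.16 (adjusted p = 0.879) and -0.22 (adjusted p = 0.734). The list's medians were 0.18 in ICC-DMP against tissue, 0.03 in ICC-MY against tissue and 0.16 between the classes.

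Of 10 Trithorax group and H3K27 demethylase genes, Kdm6b, a demethylase of H3K27, was higher in ICC-DMP than in tissue (1.45, SE 0.32, adjusted p = 0.0233 by limma). This was lost without ICC-DMP replicate 1, ICC-DMP replicate 3 or tissue replicate 1 (1.10 to 1.69 over all alternatives). By limma 0 passed in ICC-MY against tissue or between the classes, with 1 at an unadjusted p under 0.05 in each. Kdm6b and Psip1, the brightest, differed between ICC-DMP and ICC-MY by 0.85 (adjusted p = 0.135) and 0.10 (adjusted p = 0.918), and between ICC-MY and tissue by 0.59 (adjusted p = 0.325) and 0.04 (adjusted p = 0.966). The medians were 0.20 in ICC-DMP against tissue, 0.11 in ICC-MY against tissue and 0.24 between the classes.

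Of the 8 Cdx, ParaHox and Evx genes, relatives of the Hox genes, 0 passed in any comparison by limma and 0 had an unadjusted p under 0.05. Over all genes 11.0% passed in ICC-DMP against tissue, 13.8% in ICC-MY against tissue and 8.67% between the classes. The brightest, Evx2 and Cdx2, ran from 4.36 to 4.86 and from 3.93 to 4.76 over the arrays. The list's medians were -0.04, 0.02 and -0.06 in ICC-DMP against tissue, ICC-MY against tissue and ICC-DMP against ICC-MY.

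Of 4 measured direct regulators of 3′ Hox genes, Egr2, which activates Hoxa2 and Hoxb2 in the hindbrain and is also an immediate early gene, read 7.45, 7.46 and 7.2 in ICC-DMP, 6.22, 6.24 and 5.21 in ICC-MY, and 3.53 and 2.98 in tissue. ICC-DMP was highest and tissue lowest, and no groups overlapped. By limma Egr2 was higher than tissue by 4.12 in ICC-DMP (SE 0.33, adjusted p = 0.000102) and by 2.64 in ICC-MY (SE 0.33, adjusted p = 0.000964). Between the classes it differed by 1.48 (SE 0.29, adjusted p = 0.0154), which was lost without ICC-DMP replicate 1 or without ICC-DMP replicate 2 (1.14 to 1.65 over all alternatives). Gmnn, whose protein binds Hox proteins and Polycomb subunits, was lower than tissue in ICC-DMP (-1.17, adjusted p = 0.026) and in ICC-MY (-1.15, adjusted p = 0.0238). Both were lost without ICC-DMP replicate 1, tissue replicate 1 or tissue replicate 2, and the first also without ICC-DMP replicate 3 (ranges -1.34 to -1.01 and -1.27 to -0.80). The share of these 4 genes that passed was 50.0% against tissue in each class and 25.0% between the classes. Over all genes it was 11.0% in ICC-DMP against tissue, 13.8% in ICC-MY against tissue and 8.67% between the classes. The medians of these 4 genes were -0.02, -0.17 and 0.19 in ICC-DMP against tissue, ICC-MY against tissue and ICC-DMP against ICC-MY.

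**Figure D5:**
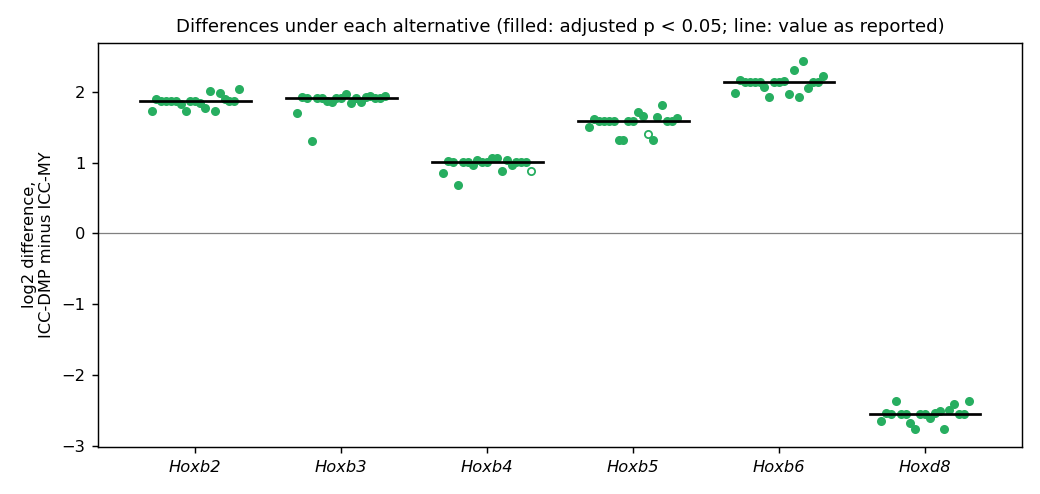
The log2 difference between ICC-DMP and ICC-MY under each of the 19 processing alternatives is plotted as points for the 6 Hox genes that passed, with a line at the reported value; filled points kept an adjusted p under 0.05 and open points did not. All points lie on the same side of 0 as the reported value, and 1 point each for Hoxb4 and Hoxb5 is open. For Hoxb2, Hoxb3 and Hoxb6, the genes that named the set, this is a description.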

How the data were processed

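RNA of 8 samples was amplified by repeated in vitro transcription, labelled with biotin and hybridised to 1 oligonucleotide array each, per the labels' protocols. The authors deposited log2 expression for each probe set on each array. The submitters' processing notes name RMA and limma with no version or role, and no other step. Of 45101 probe sets, 64 controls were left out, 34945 named 1 gene, 932 several and 9160 none, in the platform annotation. This gave 18193 genes. Groups came from the sample titles. No further normalization or filter was applied.

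The fit used limma 3.58.1 in R 4.3.3, with eBayes on a linear model of the 3 groups over all 8 arrays, and 2-sided moderated tests (5 residual and 3.17 prior degrees of freedom). Adjusted p-values are Benjamini-Hochberg values over all genes, with a threshold of 0.05. Errors with a difference are its standard error. Precision is limited by the number of arrays, which is 2 for tissue. The fit was tested on simulated data. The members and the gene lists were chosen with earlier results of these data known. The Hox genes that passed in a comparison are given on every array, those sharing a paralog number with them by value or range, and the rest by range. From each other list the text names up to 4 passing genes of smallest adjusted p per comparison, or the 2 brightest where 0 passed.

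Replicate numbers in the titles were treated as pairs, since deviations from the group means correlated above 0.1 between same-numbered samples in every pair. The correlations over genes, which are not independent, were 0.29, 0.50 and 0.39 between ICC-DMP and ICC-MY, 0.16 and 0.32 between ICC-DMP and tissue, and 0.58 and 0.61 between ICC-MY and tissue. The pairing comes from the data, not from a label. Among differently numbered samples, ICC-MY replicate 3 with tissue replicate 2 (0.169) and ICC-DMP replicate 3 with tissue replicate 1 (0.145) also exceeded 0.1. Same-numbered arrays also shared traits, such as the narrow range of ICC-MY and tissue replicate 1. The correlations therefore do not establish that samples were paired, and results with the replicate block depend on this assumption. There were 19 alternatives: other normalizations, filters, probe set rules, fits and left-out arrays, of which leaving out the 2 arrays of highest actin difference was chosen after seeing the data. Promoter sequences are from RefSeq, GRCm38.p6.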

Additional observations from a re-analysis of the deposited data

Results flagged for a closer look

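For 6 Hox genes the difference from tissue differed between the ICC classes, by the limma contrast of ICC-DMP with ICC-MY, in which the tissue arrays cancel. The difference in ICC-DMP minus that in ICC-MY was 1.87 for Hoxb2, 1.91 for Hoxb3, 1.0 for Hoxb4, 1.59 for Hoxb5 and 2.14 for Hoxb6, and it was -2.55 for Hoxd8. For Hoxd8 the sign against tissue was opposite, -1.20 in ICC-DMP and 1.35 in ICC-MY. For Hoxb5 the classes differed because ICC-MY was below tissue (-2.11) while ICC-DMP overlapped it (-0.51), whereas for Hoxb2, Hoxb3 and Hoxb6 ICC-DMP was above tissue and ICC-MY overlapped it. Hoxb6, Hoxb3 and Hoxb2 named the set with results of these data known, so their values are a description.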

How the results depend on the processing

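The 15 Hox calls were recomputed under 19 alternatives, 285 checks in all. In 283 the call was kept, in 2 it was lost, and in 0 the sign turned, so 13 calls were kept under every alternative run. For the 6 calls of Hoxb2, Hoxb3 and Hoxb6, the genes the set was named with, this is a description. Without them 169 of 171 checks kept the call, and 7 of 9 calls were kept under every alternative run. Some checks had little room to differ. The setting with every probe set counted a call as kept if any probe set of the gene passed. Averaging probe sets left the values of Hoxa2, Hoxb2, Hoxb5 and Hoxb6 unchanged, since each has 1 probe set. Leaving out a tissue array could not change the difference between the ICC classes. The losses were Hoxb4 between ICC-DMP and ICC-MY without the 2 arrays of highest actin difference (0.88) and Hoxb5 between them without ICC-DMP replicate 3 (1.40). The count of Hox genes called was 6 in ICC-DMP against tissue (6 to 8 on leaving out an array, 6 to 9 otherwise), 3 in ICC-MY against tissue (3 to 5 on leaving out an array) and 6 in ICC-DMP against ICC-MY (5 to 7, and 5 to 9 otherwise). In ICC-MY against tissue it became 5 after quantile normalization, 7 without both narrow-range arrays and 6 with the replicate block. Beside the genes named with their values for the replicate block, the block changed no other Hox call. Of 84 uncalled Hox differences, 32 turned sign under at least 1 alternative, all lying between -0.31 and 0.28 where turned. Among those of the 7 called genes, it turned for Hoxb6 in ICC-MY against tissue with array weights (0.028), with the replicate block (0.034), and without ICC-MY replicate 1 (0.11) or tissue replicate 2 (0.10), within -0.39 to 0.11 on leaving out an array. For Hoxb3 in ICC-MY against tissue it turned without tissue replicate 2 (0.28), within -0.72 to 0.28. For Hoxa2 between ICC-DMP and ICC-MY it turned after quantile normalization (-0.068), with array weights (-0.11), without the narrow-range arrays (-0.12), without ICC-DMP replicate 3 (-0.068) and without ICC-MY replicate 1 (-0.12), within -0.12 to 0.085 on leaving out an array. The causes were not tested. Of 26 calls among the cofactor, retinoic acid, chromatin and regulator lists, 13 were kept under all alternatives, and 0 of 490 checks turned a sign. With 2 tissue arrays and 5 residual degrees of freedom, a gene that did not pass is not shown to be unchanged, and genes under the array median carry little signal.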

Other observations

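Opposite-strand genes of the clusters were measured but are not members. Hoxb5os, a transcript opposite Hoxb5, read 9.69, 9.80 and 9.65 in ICC-DMP, 9.08, 9.55 and 9.11 in ICC-MY, and 9.03 and 9.32 in tissue. ICC-DMP lay above both other groups without overlap, but by limma neither its difference from ICC-MY (0.47, adjusted p = 0.167) nor that from tissue (0.54, adjusted p = 0.127) passed. Hoxa11os and Hoxd3os1 were dim, and neither passed in any comparison.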
